A study of Mus musculus with 3 samples.

Results

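Sox9 lies alone between 2 long stretches that hold no other protein-coding gene, and the chromatin of this landscape was examined in nuclei of mouse forelimb mesenchymal progenitors (MPs) at 3 embryonic stages. The landscape was taken as chr11:111000001-113500000 (GRCm38, also called mm10), which spans 2.5 Mb from Kcnj16 and Kcnj2 through the Sox9 gene (chr11:112782224-112787760, plus strand) into Slc39a11. Its members were all peaks of open chromatin called there in each stage's library. In order of age, E12.5 contributed 281 of its 190443 peaks, E14.5 gave 135 of 102459 and E16.5 gave 309 of 213613, which makes 725 of 506515 in all. Because the authors called peaks in each library separately, a peak missing from a list is not evidence of closed chromatin.

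Sox9 encodes a transcription factor of the SOX family that is required for mesenchymal cells to become chondrocytes and that drives cartilage matrix genes such as Col2a1, Acan and Col9a3. Genes of this kind are often controlled by enhancers spread over gene-poor DNA on both sides, and rearrangements far upstream of human SOX9 are a known cause of campomelic dysplasia and of Pierre Robin sequence. An enhancer that is in use is typically depleted of nucleosomes, so that the transposase of the ATAC assay cuts it more often than the DNA around it.

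The nuclei came from forelimbs of C57BL/6J embryos whose label gives the genotype Hic1CreERT2/CreERT2;Rosa26LSLtdTomato/tdTomato in all 3 libraries. Hic1-driven, tamoxifen-inducible Cre switches on the tdTomato reporter, and dams received 7.5 mg tamoxifen at embryonic day 10. Cells were sorted as tdTomato+ and negative for endothelial, erythroid and other blood-cell surface proteins, so each library describes Hic1-lineage MPs and not the whole limb. Forelimbs were pooled from embryos of both sexes, and there was 1 library per stage. The E12.5 tissue was digested with Dispase II, whereas E14.5 and E16.5 tissue was digested with other enzymes, and the E16.5 library was made from the segment around the elbow. The E16.5 library also has another software version in its file. Stage cannot be told apart from library in any comparison, nor from digestion where E12.5 is compared, nor from segment and software version where E16.5 is compared. No test was possible, and every interval given is a 95% exact interval that covers counting error only.

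In order of age the libraries held 8294, 20023 and 14048 nuclei, whose median depth was 3016, 4414 and 13502 fragments in autosomal peaks. The E16.5 library was thus the deepest per nucleus and its values for single peaks are the most precise. The libraries shared 213 barcodes between E12.5 and E14.5, 401 between E14.5 and E16.5, and 151 between E12.5 and E16.5. A barcode is only a label drawn from a common set, and these nuclei were kept in every count.

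Some regions from the comparison of nuclei with and without fragments at cartilage loci, described further on, are shown here. Each is given by the 300 bases at its middle (GRCm38, plus strand, 5′ to 3′). Regions are named by the distance of their centre from the Sox9 start, negative towards Kcnj2. The first 3 were higher at both later stages in nuclei with fragments at cartilage loci, and the last, the peak with the highest ratio at E16.5, was added after its value had been seen. At E14.5, −42.4 kb met the minimum of 50 fragments only through nuclei with fragments at those loci, as did −84.1 kb at E16.5. At −1183.3 kb the E14.5 ratio fell under 2-fold in several settings given further on. The windows shown lie at chr11:112739713-112740012, chr11:111598735-111599034, chr11:112610997-112611296 and chr11:112697933-112698232 in the order printed. Capitals mark any match, on either strand, to the letters searched for SOX (ACAAAG or AACAAT), RUNX (TGTGGT), AP-1 (TGANTCA), TEAD (GGAATG) and the CTCF core (CNAGGNGGC).
Sox9-42.4kb: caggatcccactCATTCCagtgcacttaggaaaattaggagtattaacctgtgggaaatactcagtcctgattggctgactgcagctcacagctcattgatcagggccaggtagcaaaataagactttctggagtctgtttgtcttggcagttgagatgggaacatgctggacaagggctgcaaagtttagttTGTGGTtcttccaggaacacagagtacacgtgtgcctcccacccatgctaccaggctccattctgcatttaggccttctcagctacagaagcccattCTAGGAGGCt
Sox9-1183.3kb: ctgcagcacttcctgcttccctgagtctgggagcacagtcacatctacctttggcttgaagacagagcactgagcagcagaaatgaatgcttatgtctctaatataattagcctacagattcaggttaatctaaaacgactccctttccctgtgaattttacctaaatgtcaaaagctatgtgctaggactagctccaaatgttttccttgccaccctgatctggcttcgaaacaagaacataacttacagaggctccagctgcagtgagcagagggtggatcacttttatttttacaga
Sox9-171.1kb: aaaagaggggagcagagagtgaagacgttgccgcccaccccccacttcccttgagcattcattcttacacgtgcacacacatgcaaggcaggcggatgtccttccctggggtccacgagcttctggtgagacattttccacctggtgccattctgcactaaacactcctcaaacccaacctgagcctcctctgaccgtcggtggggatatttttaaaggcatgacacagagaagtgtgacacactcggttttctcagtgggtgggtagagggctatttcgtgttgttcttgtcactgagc
Sox9-84.1kb: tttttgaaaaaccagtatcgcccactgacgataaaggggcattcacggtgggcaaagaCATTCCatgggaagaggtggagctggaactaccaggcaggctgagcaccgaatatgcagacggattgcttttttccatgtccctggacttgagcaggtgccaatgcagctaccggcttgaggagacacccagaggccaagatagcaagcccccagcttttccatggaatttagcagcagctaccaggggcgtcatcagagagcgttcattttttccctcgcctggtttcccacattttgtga
Sox9-42.4kb holds 1 TEAD, 1 RUNX and 1 CTCF core match, and Sox9-84.1kb holds 1 TEAD match. Sox9-1183.3kb and Sox9-171.1kb hold none of the letters in these windows.

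The landscape carried many peaks for its length. Peaks per Mb numbered 112.4, 54.0 and 123.6 in order of age, against 75.8, 40.8 and 84.8 over all autosomes. Most of them were weak, and the median peak had a fragment in 0.856%, 1.51% and 2.06% of nuclei at the 3 stages, near or below the 0.928%, 2.09% and 2.46% of all peaks. The members together took 0.0992%, 0.0731% and 0.0836% of autosomal fragments, while the interval makes up 0.102% of the autosomal genome. At E16.5 the peaks were intergenic in 213 cases, intronic in 80, in promoters in 10 and exonic in 6. The desert between Kcnj2 and Sox9, 1705.4 kb long, held 171, 86 and 177 peaks at the 3 stages. The stretch between Sox9 and Slc39a11, 457.092 kb long, held 61, 32 and 87, and it took 21.9%, 23.5% and 33.3% of the members' fragments. These shares are not adjusted for width, and the stretch held 48639 of 211796, 20085 of 80481 and 77210 of 219103 called bp.

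**Figure D1:**
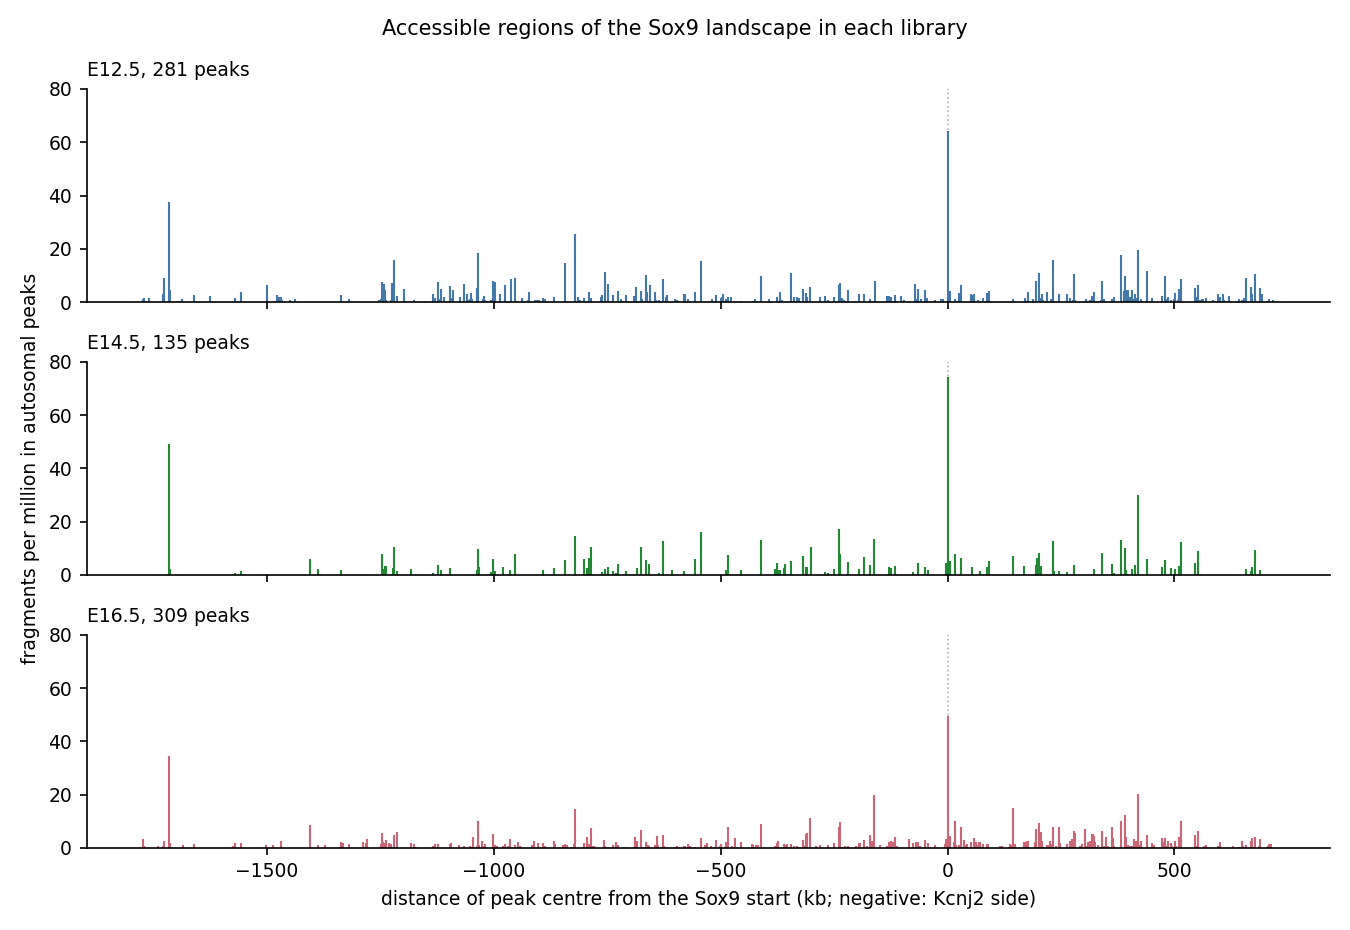
Level of each member peak (vertical line) in fragments per 1000000 on a linear axis, against the distance of its centre from the Sox9 start in kb, with 1 panel per library (281, 135 and 309 peaks). The peaks over the starts of Sox9 and Kcnj2 stand highest in all 3 libraries, and the deserts between them hold mostly weak peaks.

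The peak over the Sox9 start was the strongest member at every stage. In order of age its level was 64.3, 74.3 and 49.7 CPM (fragments per 1000000 in autosomal peaks). A fragment was present in 19.8% (18.9 to 20.7), 28.7% (28.1 to 29.3) and 44.5% (43.7 to 45.4) of nuclei, and the last share was seen at the greatest depth. The called peak covered 9693, 4587 and 5206 bp in the same order, in the youngest library the whole gene but its last bases, so these levels are not over the same bases. The next strongest was the promoter of Kcnj2, which encodes an inwardly rectifying potassium channel, with 37.8, 49.0 and 34.4 CPM. After them came a desert peak at −820.4 kb at E12.5 (25.4 CPM), and in both older libraries a peak at the start of the long non-coding RNA gene 2610035D17Rik (30.2 and 20.4 CPM). A peak over a start of Kcnj16, another potassium channel gene, was called at E12.5 only, and the Slc39a11 start lies outside the interval.

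To compare stages, peaks that overlapped by at least 1 bp were merged into 408 regions, of which 104 were called in all 3 libraries (25.5%, against 31.8% of all merged regions). A further 116 were called in the E16.5 library only (28.4%, against 27.5%), 91 only in that of E12.5 (22.3%, against 19.5%) and 1 only in that of E14.5. The oldest library shared 73 regions with the youngest alone (17.9%, against 17.1%) and 12 with E14.5 alone (2.94%, against 2.82%), and the 2 younger ones shared 11 (2.70%, against 0.997%). Apart from the last, these shares were near those of all merged regions. A region's level in a library is the sum over the peaks that library called inside it, so the bases counted differ between libraries. In this comparison CPM is per 1000000 fragments in autosomal regions called in all 3 libraries. A region was counted as higher or lower when its CPM differed at least 2-fold and the 95% counting interval of the ratio did not cover 1.

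The region over Sox9, 11774 bp long and the widest of the landscape had 79.9, 86.2 and 71.2 CPM over 11271, 5950 and 7833 called bp. Against E12.5 its log2 ratio was 0.11 (0.05 to 0.17) at E14.5 and −0.17 at E16.5 (−0.22 to −0.11). Divided by called width, the level gave log2 ratios of 1.03 from the first stage to the second and −0.67 from the second to the third. The E16.5 over E12.5 value takes the opposite sign per kb of called width, at 0.36, and as a share of nuclei, at 0.07, so no direction is given for it. The Kcnj2 region had 44.1, 50.3 and 42.7 CPM, and its E16.5 over E12.5 log2 ratio was −0.05 (−0.13 to 0.03).

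In CPM, more shared regions were lower than higher at the later stage of each pair, and this did not hold for every pair where called peaks matched. From E12.5 to E16.5, 17 of 104 were higher (16.3%, against 17.8% of all autosomal shared regions), 35 were lower (33.7%, against 15.6%) and 52 were neither. From E12.5 to E14.5, 16 were higher (all regions 10.7%) and 29 lower (all regions 16.5%). From E14.5 to E16.5, 16 were higher (all regions 16.2%) and 23 lower (all regions 6.87%). Called widths differed between the libraries. Over the 42 regions made of 1 peak per library that overlap each other by 50% or more of either length, E16.5 over E12.5 gave 3 higher (all such regions 8.15%) and 10 lower (all such regions 11.6%), with a median log2 ratio of −0.08 here and also in all such regions. Over the same 42, E14.5 over E12.5 gave 5 higher (all such regions 7.27%) and 4 lower (all such regions 4.38%), with a median log2 ratio of 0.10, and E16.5 over E14.5 gave 1 higher (all such regions 2%) and 11 lower (all such regions 6.76%). The summed level of the 104 regions was 810, 702 and 662 CPM over 120297, 73181 and 109726 called bp. The direction of this sum depended on the setting. Per kb of called width the E14.5 over E12.5 log2 ratio was 0.51 and not −0.21. Over all peaks of each library that of E16.5 over E14.5 was 0.19 and not −0.08.

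**Figure D2:**
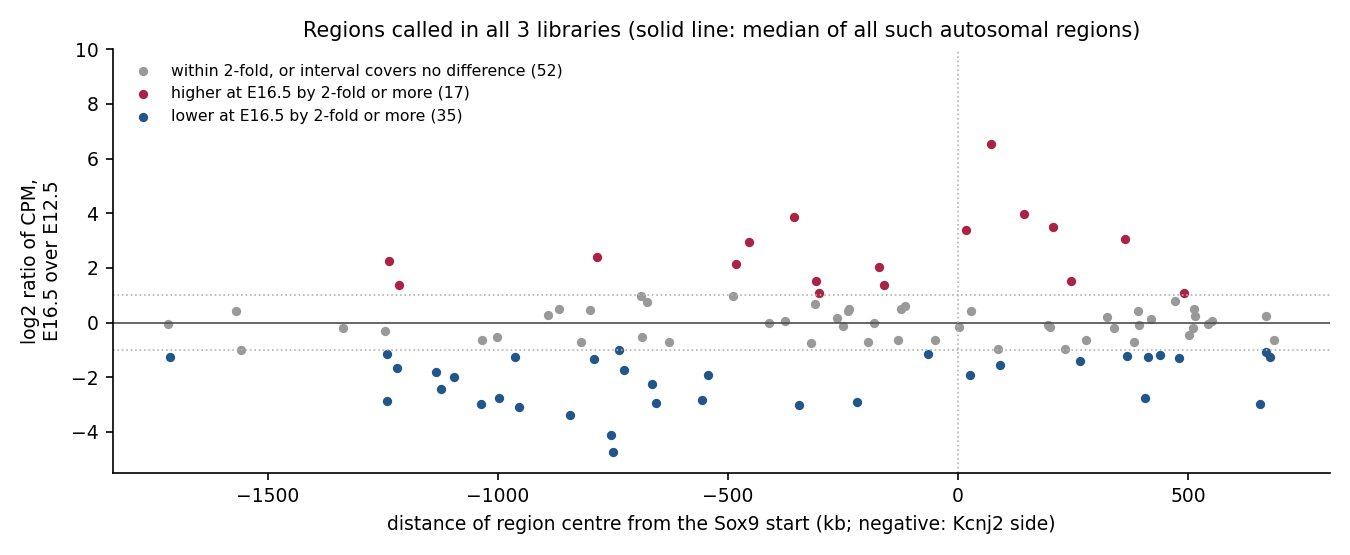
log2 ratio of CPM, E16.5 over E12.5, for the 104 shared regions (points) against distance from the Sox9 start in kb, with the regions past 2-fold marked. Levels are not adjusted for called width. The highest point, at +72.2 kb, rests on 1 fragment at E12.5. There are 17 regions above and 35 below the 2-fold lines, while the regions over Sox9 and Kcnj2 lie near 0, and the lowest 4 ratios among the regions named lie from −953.6 to −749.0 kb.

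Among the regions named below, the 5 lowest CPM ratios lay upstream. Among the 21 regions past 2-fold in both CPM and CPM per kb of called width, 6 were higher (5.77% of 104, against 4.89% of all shared regions) and 15 lower (14.4%, against 7.17%) at E16.5 than at E12.5. The regions at −749.0 kb (7.76, 3.07 and 0.290 CPM at the 3 stages) and −754.2 kb (13.1, 2.36 and 0.764 CPM) had the lowest CPM log2 ratios, −4.74 and −4.10. They were followed by −842.8 kb (17.3, 5.72 and 1.67 CPM), −953.6 kb (10.4, 8.08 and 1.21 CPM) and −344.8 kb (12.9, 5.39 and 1.59 CPM), with log2 ratios of −3.37, −3.11 and −3.03. Called widths shrank at these regions, at −749.0 kb from 1149 to 456 and 90 bp. Divided by called width, the same 5 log2 ratios were −1.07, −1.86, −1.88, −1.87 and −2.03 in the order named, so that −344.8 kb was the lowest and −749.0 kb the nearest to 0. In all 5 the CPM was lower at each later stage. Per kb of called width, however, the E14.5 over E12.5 log2 ratio was −0.005 at −749.0 kb and 0.018 at −953.6 kb. All 5 lie in the desert between Kcnj2 and Sox9. The sixth lowest, +657.3 kb within Slc39a11, was close to the fifth, at −3.00 (−3.24 to −2.76). Over that desert's 62 shared regions 10 were higher and 23 lower, with a log2 ratio of the summed CPM of −0.52 (−0.26 over the one-to-one regions).

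Among the 6 higher regions, the 5 with the highest ratios lay on both sides of the gene. The region at +144.7 kb had 1.17, 7.40 and 18.4 CPM, a log2 ratio of 3.97 (3.54 to 4.43), over 401, 900 and 1492 called bp, and 2.07 per kb. At +16.7 kb, over the promoter of the non-coding gene Gm11681, the levels were 1.1998, 8.24 and 12.4 CPM (log2 ratio 3.37, and 1.62 per kb). These 2 regions increased from each stage to the next. Upstream, −785.5 kb had 1.76, 10.7 and 9.18 CPM and −483.1 kb had 2.21, 7.84 and 9.72 CPM, for log2 ratios of 2.38 and 2.14, or 1.19 and 1.39 per kb. The fifth, at +245.0 kb, had 3.41, 1.70 and 9.87 CPM (log2 ratio 1.53, and 1.09 per kb), and its CPM was lowest at E14.5. Of the 25 shared regions between Sox9 and Slc39a11, 6 were higher and 7 lower, and their summed CPM gave a log2 ratio of 0.09, −0.11 per kb of called width, or −0.24 (−0.30 to −0.18) over the 8 one-to-one regions, of which 0 were higher and 2 lower.

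Nuclei were next divided by cartilage loci. Acan encodes aggrecan, Col2a1 the main collagen of cartilage and Col9a3 a chain of collagen IX. Each nucleus was thinned to the same number of fragments within its library (1286, 2483 and 7053 at the 3 stages) and was called gated if at least 1 remaining fragment fell in a peak over the body or the 2000 bp upstream of any of the 3 genes. The E16.5 library had 5526 gated and 5012 ungated nuclei, that of E14.5 had 4569 and 10451, and that of E12.5 had 1005 and 5216. Fragments are so sparse that ungated nuclei can include the same cells, so a gate marks a range of nuclei and not a cell type. Some of the peaks at these loci also overlap the neighbouring genes Tcfl5 and Ogfr. Doublets were not removed.

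The gate was checked on 15 other cartilage genes such as Sox5, Sox6, Col11a1 and Matn1. In gated over ungated nuclei at E16.5 their ratios ranged from 1.16 to 2.78 with a median of 1.95, and 6 of 15 were past 2-fold. In nuclei with fragments at 2 or 3 of the loci the median was 3.60 and 10 of 15 were past 2-fold. At E14.5 the median was only 1.19 (1.51 with 2 or 3 loci) and at E12.5 it was 1.09, and 0 of 15 were past 2-fold in the wider gate at both stages. Markers of muscle, endothelium and epithelium had medians of 0.907, 0.975 and 0.878 at E16.5, and 0 of 9 were past 2-fold. Median depth before thinning was 16685 fragments in gated and 17100 in ungated nuclei at E16.5, so the gated nuclei were not the deeper ones, and 5805 and 5510 at E14.5. In nuclei with 2 or 3 loci at E14.5, 1 of these markers was past 2-fold, the muscle gene Myod1 at 2.21 with 12 fragments. The E14.5 medians of muscle, endothelium and epithelium were 1.21, 1.01 and 0.945, and 1.96, 0.718 and 0.867 with 2 or 3 loci. The muscle medians, from 2 genes, were thus not below the cartilage medians of 1.19 and 1.51. In the wider gate the tenogenic loci Tnmd, Thbs4 and Kera had a median of 1.15 at E14.5, close to that of cartilage, and 1.02 at E16.5. The fibrogenic loci used further on had 0.907 and 0.875 at these stages, and the dermal fibrogenic loci 1.03 and 0.914.

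At E16.5, 270 of the 309 members had the 50 thinned fragments required, and 44 of these were higher in gated nuclei (16.3%, against 2.95% of all autosomal peaks) while 0 were lower (all peaks 0.573%). That minimum counts both kinds of nuclei together, and 27 of the 44 passed it only through the gated nuclei where they were high, the 8 with the highest ratios among them. With the minimum set on the level of the ungated nuclei, an alternative chosen after the values had been seen, 237 members were tested and 17 were higher (7.17%, against 1.64% of all peaks). Most peaks of the landscape stayed within 2-fold, and their median log2 ratio was 0.04 against −0.05 for all peaks. The 44 had a median ratio of 4.13 and the other 226 a median of 0.956, a difference that the selection itself makes. The narrowest inside the limit was +305.0 kb at 2.02, and just outside it −308.7 kb had 1.97.

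**Figure D3:**
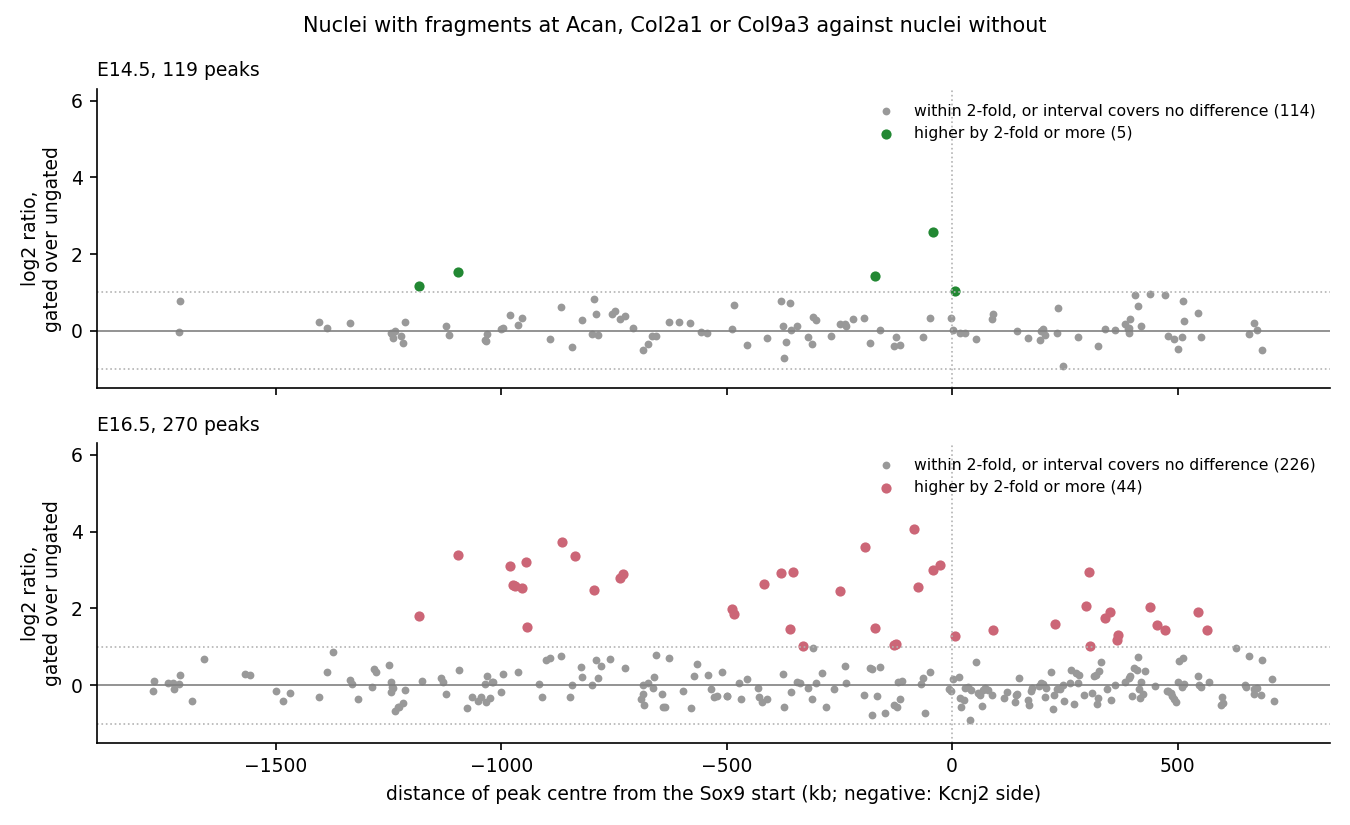
log2 ratio of fragments per 1000000 in gated over ungated nuclei for each member tested, against distance from the Sox9 start in kb, at E14.5 (119 peaks) and E16.5 (270 peaks). Coloured points are higher by 2-fold or more, 5 at E14.5 and 44 at E16.5, and at E16.5 they reach from −1183.3 to +565.2 kb.

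The highest ratio belonged to a peak at −84.1 kb (chr11:112697677-112698489), in an intron of the non-coding transcript BC006965, whose sequence is shown above. It had 241 thinned fragments in gated and 13 in ungated nuclei, a ratio of 16.8 (9.65 to 32.0). Then came −865.8 kb (chr11:111916150-111916688) with 118 against 8 fragments, a ratio of 13.4 (6.57 to 31.7), and −193.8 kb (chr11:112588130-112588712) with 146 against 11, a ratio of 12.04 (6.54 to 24.7). The intervals of these 3 overlap, so they cannot be ranked among themselves. With Acan alone as the gate the log2 ratio went from 4.07 to 2.17 at −84.1 kb, from 3.74 to 1.86 at −865.8 kb and from 3.59 to 2.26 at −193.8 kb, and −84.1 kb was no longer the highest. When thinned to 1286 fragments, with the gate on any of the 3 loci, the log2 ratio was 2.39 at −84.1 kb.

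At −837.7 kb the counts were 80 against 7 (10.4, 4.81 to 26.6) and at −945.9 kb 173 against 17 (9.23, 5.60 to 16.2). Close to the gene, −26.9 kb had 78 against 8 (8.85, 4.27 to 21.2), and far from it −980.2 kb had 57 against 6 (8.62, 3.73 to 24.5). At −980.2 kb the log2 ratio of 3.11 went to 1.89 without thinning, 1.81 with Acan alone and 2.09 with another seed, and at −945.9 kb that of 3.21 went to 1.83 with Acan alone and 4.25 without thinning. At −837.7 and −26.9 kb Acan alone gave 2.37 and 2.13 against 3.37 and 3.14, and without thinning the values were 3.15 and 4.15. These 7 lie upstream of Sox9, and all were rare, with fragments in 0.940% to 3.54% of all nuclei. By listed transcripts 6 of them were intergenic, though −26.9 kb, like −84.1 kb, lies within the annotated span of the gene BC006965.

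The Sox9 promoter did not share these ratios. Its E16.5 peak had a ratio of 1.12 (1.05 to 1.197), or 1.42 (1.30 to 1.55) in nuclei with 2 or 3 loci, and the Kcnj2 promoter had 1.03 (0.953 to 1.11). A peak at +5.8 kb, over the end of the last exon of Sox9, was higher at 2.43 (1.91 to 3.12), and 4.79 with 2 or 3 loci. A 2076 bp peak at +303.1 kb, in an intron of 2610035D17Rik, had 516 against 61 fragments and a ratio of 7.67 (5.88 to 10.2); it was named after its value had been seen.

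These peaks were chosen for their ratio of gated to ungated nuclei, so a rise from no locus to 1 or more was fixed by the choice, and the levels are a description. At −84.1 kb the level was 0.368 fragments per 1000000 in nuclei with none, 1.97 in nuclei with 1 and 17.7 in nuclei with 2 or 3, and the share of nuclei with a fragment was 0.239%, 1.19% and 10.3% (8.80 to 11.95). At −865.8 kb the shares were 0.160%, 0.644% and 5.32%, and at −193.8 kb 0.180%, 0.866% and 6.19%. The Sox9 start peak had 48.1, 48.7 and 68.4 (63.4 to 73.6) fragments per 1000000, with a fragment in 27.9%, 28.7% and 36.5% of the nuclei. All 44 higher peaks increased in this order, as did 41 of the other 226, and the first count is partly fixed by how the 44 were chosen.

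**Figure D4:**
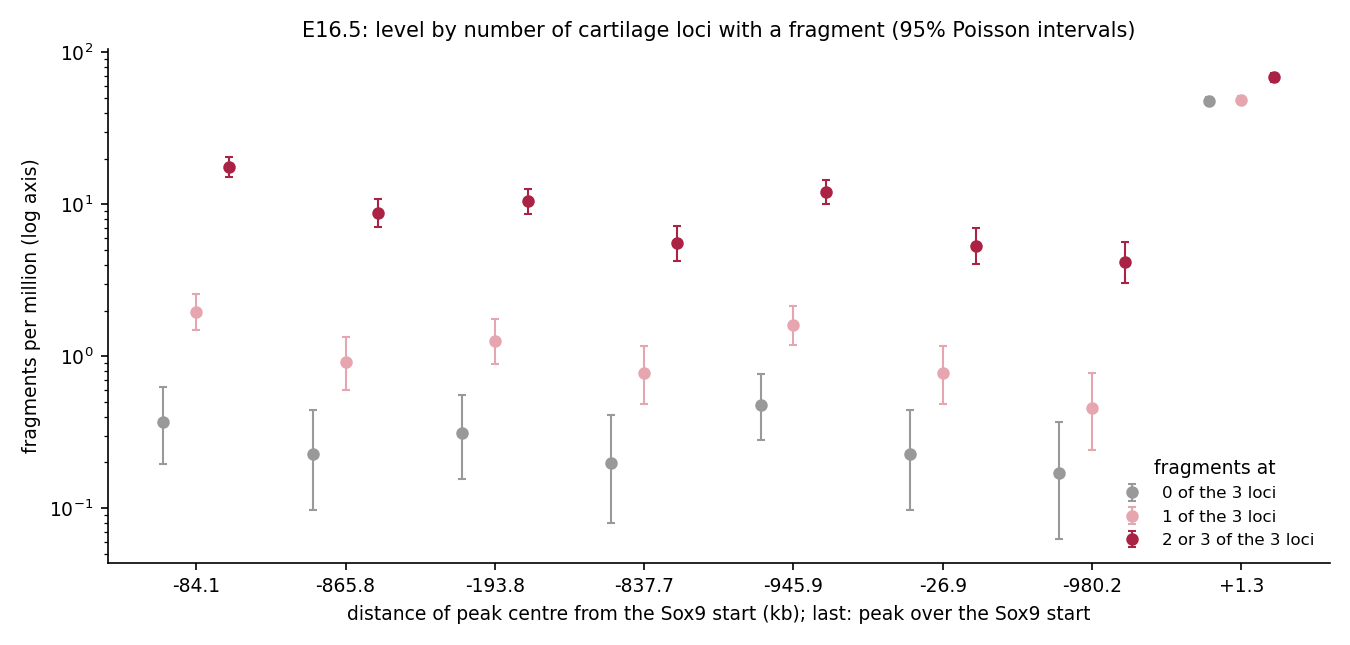
Fragments per 1000000 (log axis, 95% counting intervals) in E16.5 nuclei with a fragment at 0, 1 or 2 to 3 of Acan, Col2a1 and Col9a3, for 7 of the 8 peaks with the highest gate ratio and the peak over the Sox9 start. The 7 peaks, chosen for this contrast, climb with the number of loci, from 0.368 to 17.7 at −84.1 kb. The Sox9 start peak has 48.1, 48.7 and 68.4 in the same order.

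The 44 peaks were spread over most of the landscape. The counts by position below include the 27 that met the minimum of fragments only through the gated nuclei. In the desert between Kcnj2 and Sox9 29 of 150 tested peaks were higher, between Sox9 and Slc39a11 12 of 80, within Slc39a11 3 of 32, and among Kcnj16 and Kcnj2 0 of 7. In the 500 kb at the Kcnj2 end of the interval 0 of 22 tested peaks were higher. In stretches of 250 kb, 9 of 27 tested peaks were higher from −1032.2 to −782.2 kb, 7 of 29 from −532.2 to −282.2 kb, 8 of 28 from −282.2 to −32.2 kb and 10 of 47 from +217.8 to +467.8 kb. Fewer were higher from −1282.2 to −1032.2 kb (2 of 25) and from −782.2 to −532.2 kb (2 of 23). The stretch holding Sox9, −32.2 to +217.8 kb, had 3 of 37, and +467.8 to +717.8 kb had 3 of 32. Over all peaks the share was 2.95%. Of the 44, 6 lie within −980.2 to −943.1 kb, and 7 lie from +297.0 to +367.0 kb in the intron of 2610035D17Rik. The number of peaks tested in these stretches is not given here, so neither is shown to hold more than its share. By class the 44 were 30 intergenic, 12 intronic, 1 exonic and 1 promoter peak (Gm11679, −737.6 kb), with a median width of 582 bp against 626 bp for the others.

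At E14.5, where the gate separated the other cartilage genes far less, 119 of 135 members were tested, 5 were higher (4.20%, against 0.616% of all peaks) and 0 lower (all peaks 0.591%). With the minimum set on the ungated level, 4 of 117 were higher (3.42%, against 0.452% of all peaks), and the 1 dropped was −42.4 kb, which passed only through the gated nuclei. Of the 5, 4 were −42.4 kb with 47 against 18 fragments (ratio 5.98, 3.41 to 10.9), −171.0 kb with 72 against 61 (2.70, 1.89 to 3.86), −1183.3 kb with 39 against 40 (2.23, 1.40 to 3.56) and +6.2 kb with 93 against 104 (2.05, 1.53 to 2.73). The call at +6.2 kb was lost with another thinning seed, where its log2 ratio went from 1.03 to 0.33, and it was 0.22 when thinned to 1286 fragments. It was also under 2-fold with Acan alone (0.81), with Col2a1 alone (0.75), without thinning (0.73) and without the deepest 5% of nuclei (0.96). With Col9a3 alone it was 1.40. At −1183.3 kb the log2 ratio went from 1.16 to 0.23 with Acan alone, 0.70 with Col2a1 alone, 0.89 without thinning and 0.87 when thinned to 1286 fragments, each under 2-fold. With 2 or 3 loci, 17 were higher (14.3%, all peaks 3.28%) and 1, at −1219.1 kb, was lower with a ratio of 0.281 (all peaks 2.49%). The regions at −42.4, −171.0 and −1183.3 kb are among those whose sequences are shown above. In the order none, 1, and 2 or 3 loci, the share of E14.5 nuclei with a fragment was 0.172%, 0.832% and 2.70% at −42.4 kb, against 16.01%, 16.7% and 16.4% at the peak over the Sox9 start. With 2 or 3 loci against none the ratio was 15.7 (7.08 to 33.9) at −42.4 kb. Its log2 ratio for any of the loci, 2.58, went to 1.32 with Col2a1 alone and to 2.96 with Col9a3 alone. It was 1.94 both with another seed and when thinned to 1286 fragments. At E12.5 only 40 members were tested; 1 was higher (−997.3 kb, 2.30; all peaks 0.484%) and 1 lower (−1219.1 kb, 0.353; all peaks 1.13%).

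The later stages were then set side by side. Among 99 regions with a ratio at both, 4 were higher at the earlier and 18 at the later stage, and all 4 were among the 18 (100% of the first list and 22.2% of the second). Neither this overlap nor the next count was computed over all peaks, so neither is shown to be particular to this landscape. In addition, −42.4 kb at E14.5 and 27 of the 44 at E16.5 passed the minimum of 50 fragments only through the gated nuclei. Of the 18, 17 had a ratio above 1 at E14.5, with a median of 1.63, whereas 39 of the other 81 did, with a median of 0.993. A peak had been called at E14.5 over 22 of the 44 (50%, against 41.2% of the other tested members) and at E12.5 over 21 (47.7%, against 64.2%). Of the 44, 15 were called at E16.5 only, and no share of the other members was computed for this. The region at −953.6 kb, already named among the lowest stage ratios, was lower at E16.5 than at E12.5 over all nuclei. It was higher in the gated E16.5 nuclei, at 5.82. Of the 13 shared regions higher in those gated nuclei, 6 were lower and 2 higher over all nuclei at E16.5 than at E12.5. Of the other 86 shared regions, 24 were lower and 15 higher. The region at −171.1 kb had 1.44, 3.704 and 5.85 CPM, and its log2 ratio was 2.02 (1.63 to 2.45) or 0.88 per kb.

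A stricter gate also turned up peaks with fewer fragments in the gated nuclei. With 2 or 3 loci against none at E16.5, 61 of 270 members were higher (22.6%, all peaks 6.48%) and 19 lower (7.04%, all peaks 8.22%), so the share of lower members was near the background. The lowest were −500.7 kb (0.109), −637.7 kb (0.252), +601.0 kb (0.289) and +39.5 kb (0.291), each with few fragments. At −84.1 kb the ratio in this gate was 48.0 (27.4 to 91.9), and at −865.8 and −193.8 kb it was 38.8 and 33.7. By position, 38 of 150 tested peaks between Kcnj2 and Sox9 were higher in it, 15 of 80 between Sox9 and Slc39a11 and 8 of 32 within Slc39a11.

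The same nuclei were also divided by loci of other MP derivatives, 3 genes each. For the tenogenic loci (Tnmd, Thbs4 and Kera, expressed in tendon and other dense connective tissue) 6 members were higher (2.22%, all peaks 1.92%) and 12 lower (all peaks 2.54%). For the fibrogenic loci (Postn, Cd34 and Dpt) 9 were higher (3.33%, all peaks 1.48%) and 50 lower (18.5%, all peaks 5.94%). For the dermal fibrogenic loci (Col7a1, Rspo1 and Irx1) 14 were higher (5.19%, all peaks 5.08%) and 4 lower (all peaks 0.799%). The shares higher in the tenogenic and dermal fibrogenic gates were thus near the background. A nucleus can pass several gates, so these are values side by side and not separate populations. The 7 peaks led by −84.1 kb had ratios from 0.201 to 0.364 in the fibrogenic, 0.818 to 1.14 in the tenogenic and 0.703 to 0.984 in the dermal fibrogenic gate. They were chosen for their cartilage ratio on the same nuclei and met the minimum of 50 fragments only through nuclei in the cartilage gate. Their contrast with the other gates is therefore largely fixed by that choice.

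**Figure D5:**
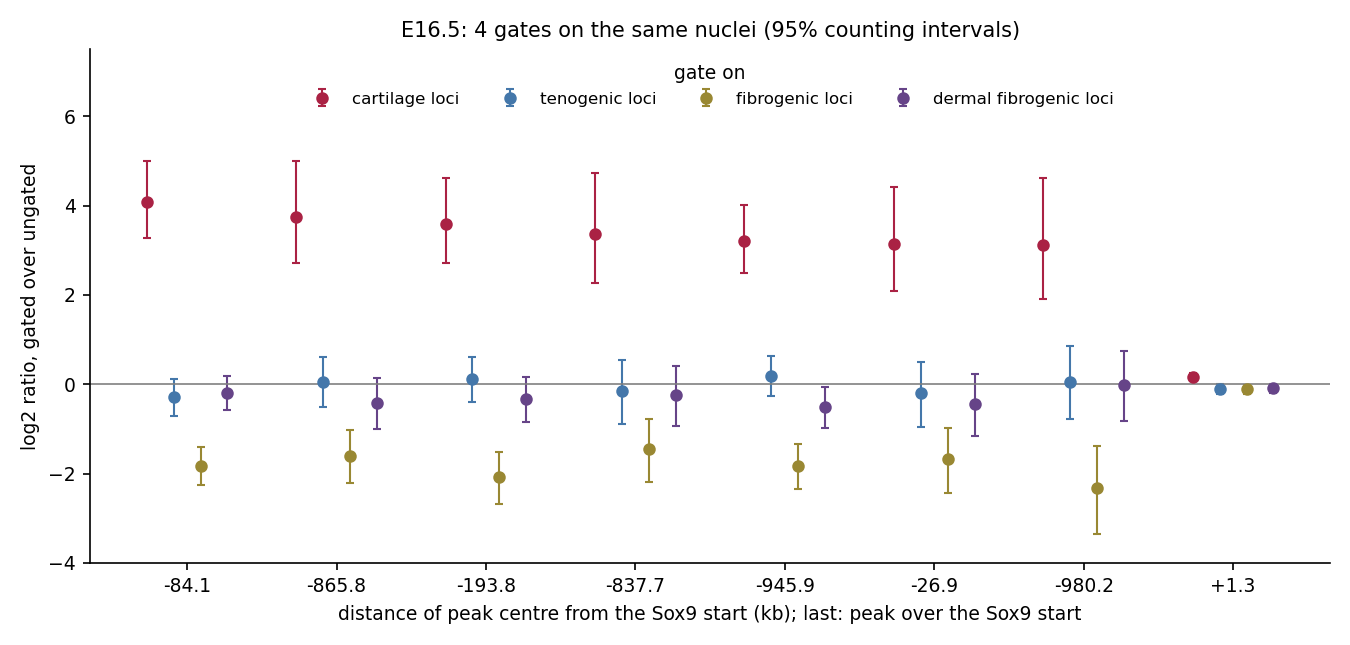
log2 ratio of gated over ungated E16.5 nuclei (95% counting intervals) under 4 gates, for 7 of the 8 peaks with the highest cartilage ratio and the peak over the Sox9 start (+1.3 kb). The 7 peaks were chosen for their cartilage ratio and met the minimum of fragments only through nuclei in that gate. They are high under the cartilage gate, below 0 under the fibrogenic gate and close to 0 under the tenogenic and dermal fibrogenic gates. The Sox9 start peak is near 0 under all 4.

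Some members were higher in the other gates, each named after its value had been seen, and in the tenogenic and dermal fibrogenic gates such calls were about as frequent as among all peaks. The highest were −847.1 kb with the tenogenic loci (3.90, 2.38 to 6.50), +651.8 kb (3.01, 1.67 to 5.76) and +65.8 kb (3.01, 1.83 to 5.14) with the fibrogenic loci, and +685.9 kb (3.11, 1.75 to 5.73) and −1025.8 kb (2.94, 2.16 to 4.01) with the dermal fibrogenic loci. Of these, +651.8 and +685.9 kb lie within Slc39a11 and the others in the deserts.

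The letters of known motifs were counted in the central 300 bp of E16.5 peaks, on both strands. Here all peaks means the 208869 autosomal peaks of that library, tested or not. Of the 44 peaks higher in gated nuclei, 27 met the minimum of fragments only through those nuclei. ACAAAG and AACAAT, forms of the SOX site that can overlap, were present in 4.55% and 6.82% of the 44, in 19.0% and 18.6% of the other 226 members tested, and in 22.7% and 14.6% of all peaks. The CTCF core CNAGGNGGC was present in 15.9%, 4.42% and 5.35% respectively. RUNX letters were found in 15.9%, 23.9% and 22.1%, AP-1 letters in 6.82%, 23.0% and 19.5%, and TEAD letters in 9.09%, 17.7% and 20.5%. Shares of 4.55% to 9.09% of 44 stand for only 2 to 4 peaks and 15.9% for only 7, so they are coarse. GC content was similar, with medians of 47.5%, 46.3% and 46.7%.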

How the data were processed

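Nuclei were profiled by single-nucleus ATAC sequencing (10x), with 1 library at each of 3 stages. The deposited files hold, per library, peaks and a matrix of raw counts of transposase cut sites per peak and nucleus, made by the authors with Cell Ranger ATAC (1.1.0 in the submitters' notes; the matrix headers give 1.2.0 for E16.5 and 1.0.1 for the younger libraries) on mm10 (GRCm38), with peaks called per library. Cut sites totalled 87048167, 204289151 and 413425059. A cut-site count was turned into fragments by dividing by 2 and rounding up. Peaks were classed by the listed transcripts of GENCODE M21, so a peak within a gene's span but outside these transcripts counts as intergenic. Levels are per 1000000 fragments in autosomal peaks or shared regions.

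Nuclei were thinned to the 25th percentile of fragments of their library, leaving 6221, 15020 and 10538 nuclei, and shallower nuclei were left out. Gate ratios required 50 thinned fragments, and peaks within 100000 bp of the gate loci were left out of the background of all peaks. Ratios carry conditional binomial and levels Poisson intervals, and shares of nuclei carry Clopper-Pearson intervals (95%). Nuclei of 1 library are not replicates, so no p-value was computed. The scripts used Python 3.11.15, numpy 2.4.6, pandas 2.3.3 and scipy 1.17.1 and were tested on simulated data.

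Named regions were those over gene starts, the strongest 3 per library, the widest, the 5 largest and 5 smallest stage ratios past 2-fold in both CPM and per kb, and the 8 highest and 4 lowest gate ratios past 2-fold. The members, genes and lists were chosen with earlier results of these data known. Cartilage markers checked beside the gate were Sox5, Sox6, Col9a1, Col9a2, Col11a1, Col11a2, Matn1, Matn3, Hapln1, Comp, Cnmd, Snorc, Chad, Wwp2 and Fgfr3. Those of other lineages were Myod1, Myf5, Myog, Cdh5, Pecam1, Kdr, Krt5, Krt14 and Epcam. The loci of the other gates were also read as markers. The Sox9 promoter sequence was not used here, and 1 region among the named ones and 1 marker list are not reported here.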

Additional observations from a re-analysis of the deposited data

How the results depend on the processing

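The direction of the landscape's summed level depended on the setting. For E14.5 over E12.5 the log2 ratio was −0.21. It reversed to 0.51 per kb of called width and to 0.0057 when scaled to shared regions without a start site, and was −0.086 with median scaling, −0.10 over one-to-one peaks, −0.17 as a share of nuclei and also −0.17 without the deepest 5% of nuclei, −0.25 in cut sites and −0.44 over all peaks of each library. For E16.5 over E14.5 (−0.08) it reversed to 0.19 over all peaks, and in the order of settings above was −0.67 per kb, −0.32 without start sites, −0.18, −0.041, −0.061 and, in cut sites, −0.053. For E16.5 over E12.5 (−0.29) it was −0.16 per kb, −0.32 without start sites, −0.14 one-to-one, −0.23 as a share, −0.26 without the deepest nuclei and −0.25 over all peaks. The counts of 17 higher and 35 lower regions became 6 and 16 per kb, and 3 and 10 one-to-one (all such regions 8.15% and 11.6%). No share of all shared regions is given for the counts per kb. The Sox9 region from E12.5 to E14.5 (0.11) was 0.23 with median scaling, 1.03 per kb, 0.28 as a share and 0.17 without the deepest nuclei. Its E16.5 over E14.5 value (−0.28) was −0.37, −0.67 and −0.21 with the first 3 of these, and from E12.5 to E16.5 (−0.17) it reversed to 0.36 per kb and 0.067 as a share and was −0.093 without the deepest nuclei. It is not one-to-one, so that setting was not run for it. The cause of these differences between settings was not tested.

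At E14.5, the 5 higher members became 17 with 2 or 3 loci, 2 with Col2a1 alone, 16 with Col9a3 alone and 16 at 1.5-fold. Over all peaks the shares were 3.28%, 0.334%, 2.91% and 2.48% in this order. The 0 lower members became 1, 2 and 4 with the first 3 of these, and 1 each with another thinning seed and at 1.5-fold (all peaks 2.49%, 0.846%, 3.01%, 0.604% and 2.63% in this order). At E16.5, the 44 higher members were 15 when thinned to 1286 fragments, where 75 were tested, and 17 with the minimum set on the ungated level (all peaks 3.42% and 1.64%). The 0 lower became 19 with 2 or 3 loci, 7, 2 and 5 with Acan, Col2a1 and Col9a3 alone, 3 without thinning, 1 when thinned to 1286, 6 with another seed, 1 with a minimum of 20 fragments and 3 at 1.5-fold (all peaks 8.22%, 2.77%, 1.32%, 3.38%, 0.375%, 3.28%, 0.636%, 0.844% and 3.93% in this order). As shares of members tested at E16.5, 3 of 300 without thinning (1%) and 6 of 270 with another seed (2.22%) lay above those of all peaks. Their median log2 ratio (0.04) was −0.071 with 2 or 3 loci and 0.11 without thinning. The log2 ratio of the Sox9 promoter peak at E16.5 was 0.51 with 2 or 3 loci, 0.31 with Acan alone, 0.40 with Col9a3 alone and 0.49 thinned to 1286. Of 117 values for single named peaks, 28 moved beyond their counting interval; all were positive, which the choice of these peaks and the shared nuclei largely fixed. Under the other gates, depths and seed at E16.5, 14% to 22.6% of members were higher against 2.28% to 6.48% of all peaks, and 37 to 44 of the 44 were higher again, apart from 11 when thinned to 1286 fragments. At E14.5, of the 5, 2 were higher again with Col2a1 alone and when thinned to 1286, 3 with Acan alone and without thinning, 4 with another seed and without the deepest nuclei, and 5 with 2 or 3 loci and with Col9a3 alone. No paired analysis was possible because there was 1 library per stage.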
